A study of Homo sapiens with 6 samples.

Results

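Interferon regulatory factors (IRFs) were followed across 6 RNA-seq libraries of NB4 cells. The genes were taken by name, as IRF1, IRF2, IRF3, IRF4, IRF5 and IRF8. Of these 6 genes, 5 were among the 12301 genes listed for both treatments and are described in every library. IRF4, a relative of IRF8 best known from lymphoid cells, had no row among the genes analysed here and so has no value. The lowest count of any listed gene, summed over 3 libraries, was 12 in ATRA and 22 in DMSO, and whether IRF4 lay under it was not tested.

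NB4 is a human cell line from acute promyelocytic leukaemia, a leukaemia blocked at the promyelocyte stage of granulocyte development. The cells carried 1 of 2 short hairpin RNAs against SMARCD2, a subunit of the SWI/SNF chromatin remodelling complex, or a control construct. Each construct was grown with 1 µM all-trans retinoic acid (ATRA), the drug that drives these cells towards granulocytes, or with its solvent DMSO, for a time not stated in the labels. There was thus 1 library for hairpin 2, hairpin 1 and control in ATRA, and 1 for each of them in DMSO, and nothing in the labels says that they came from separately repeated cultures, so every p-value measures only the spread between these libraries.

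IRFs are transcription factors that share a helix-turn-helix DNA-binding domain and recognise GAAA repeats in the promoters of interferon genes and interferon-stimulated genes. IRF3, IRF5 and IRF7 wait in the cytoplasm and are activated by kinases downstream of sensors of foreign nucleic acid, IRF1 and IRF2 act as an activator and its antagonist on shared sites, and IRF9 acts with STAT2 after interferon binds its receptor. In the myeloid lineage IRF8 directs progenitors towards monocytes and dendritic cells and, in mice, restrains the granulocyte path. ATRA is known to raise IRF1 and a broad interferon-type programme in acute promyelocytic leukaemia cells.

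Windows around annotated start sites are shown for the genes whose levels moved with treatment or with hairpin, to put known types of regulatory element beside those levels. They run from 250 bases before to 50 bases after a start site in RefSeq annotation of GRCh38.p14, read along the gene's strand with the start site counted as 0, and were found for 4 of the 6 genes, IRF1, IRF4, IRF5 and IRF8. Motif matches on either strand are in capitals, and a match says only that these letters are present. The IRF1 window (chr5:132490724-132491023, minus strand) holds a gamma-activated site, TTCNNNGAA, at -124 to -116 and an NF-kB-type element, GGGANNNCC, at -49 to -41.
IRF1: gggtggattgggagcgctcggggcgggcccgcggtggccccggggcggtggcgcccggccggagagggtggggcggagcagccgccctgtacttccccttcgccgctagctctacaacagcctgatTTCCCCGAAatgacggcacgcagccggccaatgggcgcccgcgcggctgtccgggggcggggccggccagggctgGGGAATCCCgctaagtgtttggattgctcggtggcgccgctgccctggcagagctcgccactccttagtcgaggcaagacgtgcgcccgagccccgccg
Of the RefSeq windows of IRF5, the most upstream (chr7:128937677-128937976, plus strand) holds the retinoic acid receptor motif AGGTCA at -94 to -89.
IRF5: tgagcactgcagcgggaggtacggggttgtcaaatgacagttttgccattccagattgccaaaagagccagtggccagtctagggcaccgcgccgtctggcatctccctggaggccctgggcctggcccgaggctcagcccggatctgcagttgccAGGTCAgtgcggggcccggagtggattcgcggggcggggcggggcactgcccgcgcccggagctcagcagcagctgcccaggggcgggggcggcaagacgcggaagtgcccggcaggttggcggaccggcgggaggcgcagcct
The upstream window of the pair found for IRF8 (chr16:85902580-85902879, plus strand) lies inside the annotated gene, at an internal start site, and holds AGGTCA at 3 to 8.
IRF8: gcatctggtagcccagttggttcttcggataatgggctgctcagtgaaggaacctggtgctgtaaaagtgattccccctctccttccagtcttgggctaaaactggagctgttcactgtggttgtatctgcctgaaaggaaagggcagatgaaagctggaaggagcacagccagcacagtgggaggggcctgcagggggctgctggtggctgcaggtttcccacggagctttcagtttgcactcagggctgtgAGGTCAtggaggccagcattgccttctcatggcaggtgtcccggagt
None of these elements is rare. Of 35116 promoter windows of the same length, 7.66% hold the gamma-activated site, 22.9% the NF-kB-type element and 13.8% the receptor motif AGGTCA. The letters of the interferon-stimulated response element, GAAANNGAA, are in 8.11% of windows and, among the windows of these genes, only in an IRF5 window at an internal start site (chr7:128941018-128941317), at -4 to 4. That window is not printed. The ETS and IRF composite, GGAANNGAA, found in 7.79% of windows, matched in another IRF5 window at -32 to -24, and the other receptor motif searched, AGTTCA, found in 10.4%, matched in none of them. The NF-kB-type element also matched in an IRF5 window (chr7:128937967-128938266) at -207 to -199 and in the other IRF8 window (chr16:85902765-85903064) at -123 to -115. Neither of these is printed. All shares are per window, and IRF5 and IRF8 had further windows in which a match could fall.

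Before the IRF values, the libraries were checked. Their total counts ranged between 29291209 and 58099733, the control libraries being the shallowest. SMARCD2, the targeted gene, stood at 35.6, 64.2 and 122 CPM, a read count scaled to library size with TMM normalization, in hairpin 2, hairpin 1 and control cells in ATRA, and at 25.7, 39.0 and 95.5 CPM in the same order of constructs in DMSO. All knockdown libraries lay below the control library of their treatment, and hairpin 2 was the lower hairpin in both. Of 6 promyelocyte markers (MPO, ELANE and others), 5 were listed in ATRA and 6 in DMSO, and their sum ranged over 4666 to 6352 CPM in ATRA and about 10180 to 10410 CPM in DMSO. Of 6 granulocyte maturation markers (such as ITGAM and CYBB), 6 were listed in ATRA and 5 in DMSO. Those listed summed to 5281 to 5690 CPM in ATRA and 280 to 332 CPM in DMSO. Of 5 B-cell markers, 3 were listed in ATRA and 2 in DMSO, summing to at most 13.7 CPM, with MS4A1 unlisted, and CD2 and IL7R were unlisted among 5 T-cell markers, whose sum was 199 to 246 CPM in ATRA and 88.7 to 93.4 CPM in DMSO. Of 5 erythroid and 5 stromal markers, HBB, HBA1, COL1A2 and DCN were among those unlisted, and the erythroid sum was at most 0.593 CPM. The stromal sum was 35.5 to 39.4 CPM in ATRA and 23.6 to 25.3 CPM in DMSO. The B-cell, T-cell and stromal sums did not overlap between treatments, and their part in the IRF values was not tested.

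IRF1 and IRF2 rose with ATRA, IRF8 fell, and IRF3 and IRF5 did not pass the test in the main fit, which had no term for single constructs. IRF1, the activator first described on the interferon-beta gene, was the IRF with the most marked change. It measured 208, 212 and 195 CPM in hairpin 2, hairpin 1 and control cells in ATRA, against 30.8, 26.7 and 27.7 CPM in hairpin 2, hairpin 1 and control cells in DMSO. The lowest ATRA library was thus several-fold above the highest DMSO library, and the constructs lay close together within each treatment. Averages were 205 ± 9.02 CPM in ATRA and 28.4 ± 2.13 CPM in DMSO (SD, n = 3 each). The log2 fold change was 2.85 ± 0.06 (SE), or 7.22-fold, with an adjusted p of 4.58e-09 by edgeR (quasi-likelihood test, Benjamini-Hochberg over all genes). Of the 12301 genes, 316 (2.57%) had a log2 fold change at least as high.

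**Figure D1:**
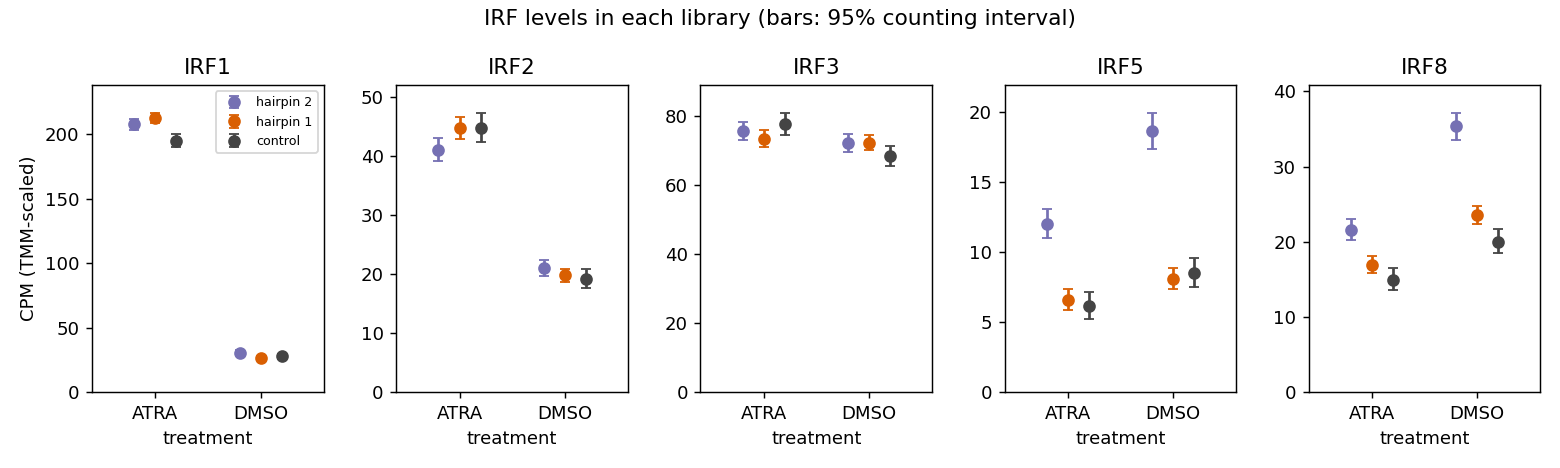
Level of each IRF (CPM, linear axis starting at 0, a separate scale per gene) in the 3 ATRA libraries and the 3 DMSO libraries, coloured by construct, with bars giving the 95% counting interval. IRF1 (195 to 212 CPM in ATRA, 26.7 to 30.8 CPM in DMSO) and IRF2 separate by treatment, whereas for IRF5 and IRF8 the hairpin 2 libraries stand highest within each treatment.

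IRF2, which competes with IRF1 for the same sites and mostly represses them, also rose. Its levels were 41.1, 44.8 and 44.8 CPM in hairpin 2, hairpin 1 and control cells in ATRA, against 21.1, 19.8 and 19.2 CPM in hairpin 2, hairpin 1 and control cells in DMSO. The treatments did not overlap. With means of 43.6 ± 2.13 CPM in ATRA and 20.04 ± 0.93 CPM in DMSO (SD, n = 3 each), the log2 fold change was 1.12 ± 0.07 (SE), or 2.17-fold, with an adjusted p of 1.04e-06 by edgeR.

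IRF8, the myeloid factor that favours monocytes and dendritic cells, moved the other way. It measured 21.5, 16.9 and 14.96 CPM in hairpin 2, hairpin 1 and control cells in ATRA, against 35.3, 23.5 and 19.99 CPM in hairpin 2, hairpin 1 and control cells in DMSO. The hairpin 2 library in ATRA was above the control library in DMSO, so the treatments overlapped, while each construct on its own was lower in ATRA. The log2 fold change was -0.55 ± 0.16 (SE), a level in DMSO 1.47 times that in ATRA, with an adjusted p of 0.012 by edgeR. Without the hairpin 1 ATRA library the log2 fold change was -0.43 and its adjusted p 0.058. In these bulk libraries, fewer cells that express a gene and less RNA per cell cannot be told apart.

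IRF5, which acts with MYD88 downstream of Toll-like receptors, was the least abundant IRF listed. It had 512, 321 and 173 counts in hairpin 2, hairpin 1 and control cells in ATRA, which are 11.99, 6.59 and 6.13 CPM, against 816, 487 and 261 counts, or 18.6, 8.08 and 8.47 CPM, in hairpin 2, hairpin 1 and control cells in DMSO. All constructs were lower in ATRA, with log2 ratios of -0.63, -0.29 and -0.47 for hairpin 2, hairpin 1 and control, but the hairpin 2 ATRA library exceeded the other DMSO libraries. Across libraries the log2 fold change of -0.50 ± 0.32 (SE) did not pass the test (adjusted p = 0.186 by edgeR). Without the hairpin 1 DMSO library it was -0.80, with an adjusted p of 0.0258 by edgeR, and without the hairpin 2 DMSO library it was -0.06. A fit of all libraries with construct as a block gave -0.47 ± 0.10 (SE, adjusted p = 0.0035 by edgeR). That fit was kept as an alternative, because the constructs were not taken as pairs, as given with the processing. A processed pseudogene of IRF5 is annotated in the genome, and the sources used here do not say how reads that match both were counted.

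IRF3, the constitutively made factor that starts interferon-beta transcription after viral sensing, differed least. Levels of 75.5, 73.4 and 77.5 CPM in hairpin 2, hairpin 1 and control cells in ATRA compare with 72.1, 72.2 and 68.4 CPM in hairpin 2, hairpin 1 and control cells in DMSO. Every ATRA library lay above every DMSO library, by a narrow margin. The log2 fold change of 0.09 ± 0.05 (SE) had an adjusted p of 0.132 by edgeR, and its sign depended on scaling: with scaling by total counts, which shifts the median of all genes to -0.14, it was -0.04. IRF3 shares 482 exon bases with BCL2L12 on the opposite strand, whose own log2 fold change was -0.09 ± 0.05 (SE), and IRF1 shares 580 with C5orf56, so reads in those stretches cannot be assigned if strand was not used.

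In all, 2 of the 5 IRFs were called higher and 1 lower with ATRA, while 36.2% of all genes were called higher and 37.8% lower, 74% in either direction. Shares of 5 genes are coarse, and these were read as no result about the IRFs as a group. Of the 5 IRFs, 3 had no overlap between ATRA and DMSO libraries, and 77.1% of all genes had none. Within knockdown cells alone IRF1 (log2 fold change 2.87), IRF2 (1.07) and IRF8 (-0.61) were called by edgeR, beside 34.6% of all genes called higher and 35.4% lower, 69.9% in either direction. The IRF8 call there was lost without the hairpin 2 DMSO library (-0.29, adjusted p = 0.131 by edgeR) and without the hairpin 1 ATRA library (-0.44, adjusted p = 0.157 by edgeR). In control cells there was 1 library against 1, so the spread was taken wholly from the hairpins of the knockdown groups. On that footing IRF1 (2.81) and IRF2 (1.22) were called and IRF8 (-0.42) was not, beside 29.3% of all genes called higher and 29.6% lower, 59% in either direction.

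**Figure D2:**
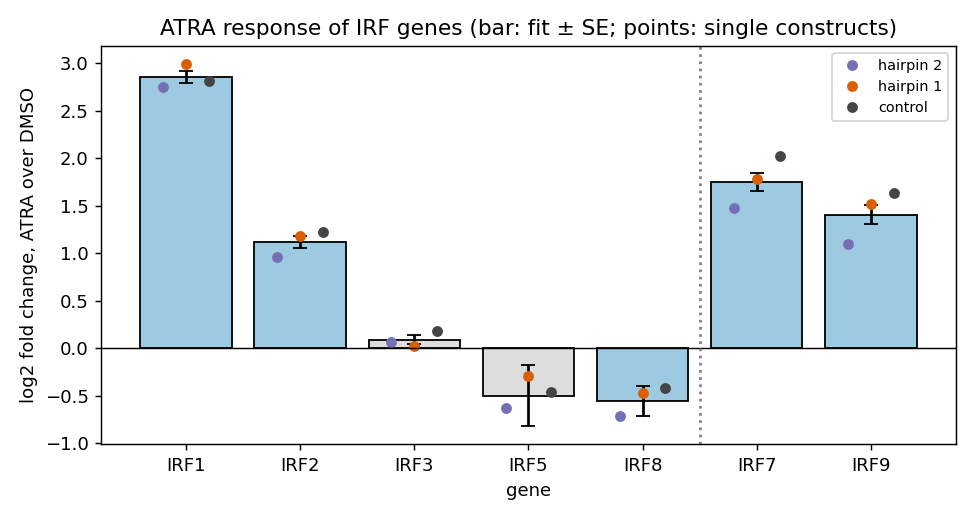
Log2 fold change of ATRA over DMSO for the 5 IRFs and, right of the dotted line, IRF7 and IRF9. Bars are the fit over all 6 libraries with its SE (blue, adjusted p under 0.05; grey, not called) and points are the single constructs, which share a sign for every gene (for IRF3 the sign of the fit turns with scaling by total counts), from IRF1 at 2.85 to IRF8 at -0.55.

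IRF7 and IRF9, relatives listed for both treatments, rose as well. IRF7, the amplifier of type I interferon production, averaged 211 ± 5.29 CPM in ATRA and 63.0 ± 11.7 CPM in DMSO (SD, n = 3 each), a log2 fold change of 1.75 ± 0.09 (SE). Its CPM in sequencing run 1 was 1.30 to 1.42 times that in run 2 in every library, while for IRF1, IRF2, IRF3, IRF5 and IRF8 this ratio stayed within 0.84 and 1.21. IRF9 averaged 83.9 ± 2.62 CPM in ATRA and 31.7 ± 5.34 CPM in DMSO, a log2 fold change of 1.41 ± 0.10 (SE).

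Because counts grow with transcript length, levels of different IRFs were set beside each other only as CPM per kilobase of merged coding-transcript exon. On that scale IRF1 averaged 54.0 ± 2.38 in ATRA and 7.49 ± 0.56 in DMSO (SD, n = 3 each). IRF3 averaged 31.5 in ATRA and 29.6 in DMSO, IRF2 18.9 in ATRA and 8.70 in DMSO, IRF8 4.25 in ATRA and 6.26 in DMSO, and IRF5 2.47 in ATRA and 3.51 in DMSO. Among these 5 the order in ATRA was therefore IRF1, IRF3, IRF2, IRF8 and IRF5, and in DMSO IRF3, IRF2, IRF1, IRF8 and IRF5. In DMSO the libraries of IRF1 (7.04 to 8.12) and IRF8 (4.77 to 8.42) overlapped, as did those of IRF8 and IRF5 (2.42 to 5.57). In ATRA only IRF8 (3.57 to 5.13) and IRF5 (1.84 to 3.59) overlapped among neighbours. Which exons NB4 cells use is not known here, and with the median transcript length in place of merged exons IRF8 (18.9) came before IRF1 (13.8) and IRF2 (8.70) in DMSO. Among the 5, IRF3 was first in DMSO, IRF1 first in ATRA and IRF5 last in both on either length. IRF7 averaged 98.4 in ATRA and 29.4 in DMSO on merged exons, above IRF1 in both, and IRF9 averaged 42.7 in ATRA and 16.1 in DMSO.

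Ratios of counts within a library do not depend on scaling, and 3 were compared. IRF1 reads outnumbered IRF2 reads by 5.05, 4.75 and 4.35 to 1 in hairpin 2, hairpin 1 and control cells in ATRA, against 1.46, 1.35 and 1.44 to 1 in hairpin 2, hairpin 1 and control cells in DMSO. The activator-to-antagonist ratio was thus 3.32-fold higher in ATRA, with no overlap. IRF8 reads per IRF1 read were 0.104, 0.0797 and 0.0767 in hairpin 2, hairpin 1 and control cells in ATRA, against 1.15, 0.881 and 0.721 in hairpin 2, hairpin 1 and control cells in DMSO. That ratio was 10.5-fold higher in DMSO than in ATRA, again without overlap. An exact two-sided permutation test gave p = 0.1 for each, the smallest p that 3 against 3 libraries allow, and the IRF5-to-IRF3 ratio gave p = 0.4 with a mean log2 difference of -0.56. Adjustment over the 3 ratios cannot bring any of them under 0.05.

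**Figure D3:**
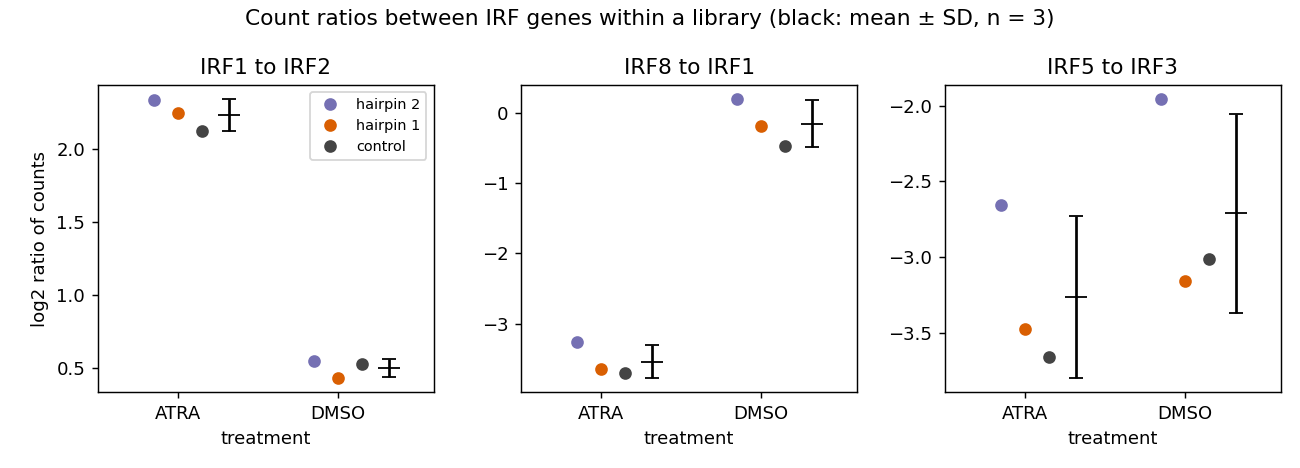
Log2 ratio of counts between pairs of IRFs within each library, ATRA left and DMSO right in each panel, coloured by construct, with the mean and SD (n = 3) in black. IRF1 to IRF2 averages 2.23 in ATRA and 0.50 in DMSO, IRF8 to IRF1 averages -3.54 in ATRA and -0.15 in DMSO, and IRF5 to IRF3 overlaps between treatments.

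SMARCD2 knockdown was then set against the control construct within each treatment. None of the 5 IRFs was called by edgeR in ATRA or in DMSO, where 0.00813% of all genes (1 of 12301) were called in ATRA and 0% in DMSO, with 1329 genes in ATRA and 868 in DMSO at an unadjusted p under 0.05. With 1 control library per treatment, the spread in these fits comes from the difference between the hairpins. SMARCD2 itself was not called in these fits either, at a log2 fold change of -1.29 ± 0.31 in ATRA and -1.55 ± 0.32 in DMSO (SE). An IRF that is not called here may therefore still have changed. DESeq2 called 52 genes in ATRA and 38 in DMSO.

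IRF1, IRF2 and IRF3 stayed within narrow limits of the control. In ATRA the log2 fold changes of knockdown over control were 0.11 ± 0.08 for IRF1, -0.06 ± 0.09 for IRF2 and -0.06 ± 0.07 for IRF3 (SE). In DMSO they were 0.05 ± 0.10 for IRF1, 0.08 ± 0.10 for IRF2 and 0.08 ± 0.07 for IRF3 (SE). None of these exceeded its error by much, and single hairpins ranged between 0.917 and 1.11 times the control.

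IRF5 and IRF8 had larger estimates with wide errors. IRF5 gave a log2 fold change of 0.59 ± 0.54 in ATRA and 0.64 ± 0.51 in DMSO (SE, adjusted p = 0.713 and 0.823 by edgeR). IRF8 gave 0.36 ± 0.26 in ATRA and 0.55 ± 0.25 in DMSO (SE, adjusted p = 0.642 and 0.719 by edgeR). The width came from the hairpins: IRF5 in hairpin 2 was 1.96 times the control in ATRA and 2.20 times in DMSO, while in hairpin 1 it was 1.07 times the control in ATRA and 0.954 times in DMSO. For IRF8, hairpin 2 was 1.44 times the control in ATRA and 1.77 times in DMSO, and hairpin 1 was 1.13 times in ATRA and 1.18 times in DMSO. Without the hairpin 2 library the DMSO estimates were -0.06 for IRF5 and 0.24 for IRF8, and without the hairpin 1 library they were 1.15 for IRF5 and 0.83 for IRF8.

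**Figure D4:**
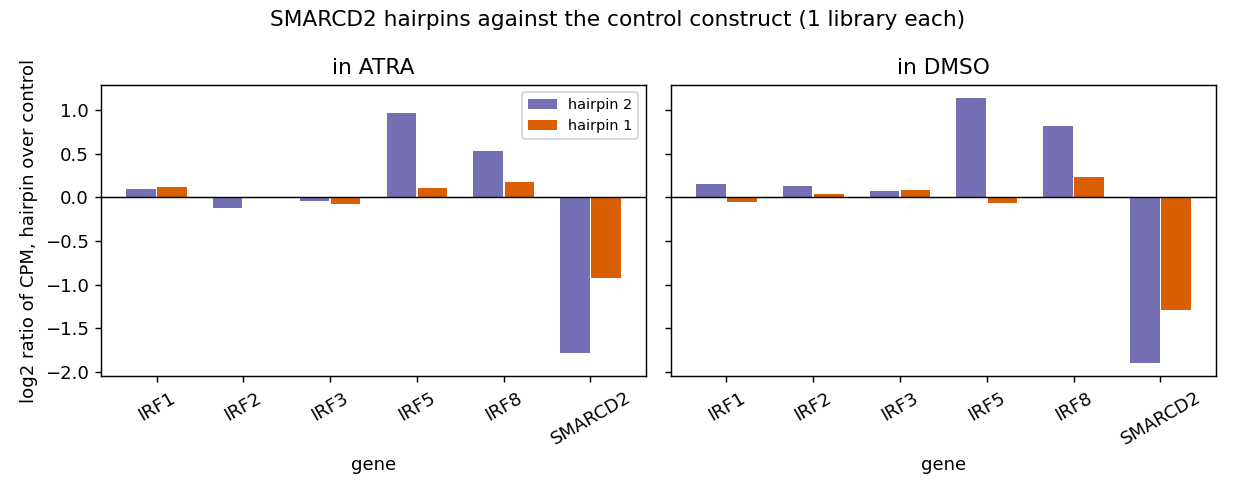
Log2 ratio of CPM of each hairpin over the control construct in ATRA (left) and DMSO (right), 1 library each, for the 5 IRFs and for SMARCD2. Hairpin 2 stands at 0.97 (ATRA) and 1.13 (DMSO) for IRF5 and at 0.53 (ATRA) and 0.82 (DMSO) for IRF8, while both hairpins are below 0 for SMARCD2.

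The hairpins themselves differed in IRF5 and IRF8. In ATRA, IRF5 stood at 11.99 CPM (95% counting interval 11.0 to 13.1) in hairpin 2 and 6.59 CPM (5.89 to 7.35) in hairpin 1. In DMSO it stood at 18.6 CPM (17.3 to 19.9) in hairpin 2 and 8.08 CPM (7.38 to 8.83) in hairpin 1. Hairpin 2 was the higher by 1.82 times in ATRA and 2.30 times in DMSO, and it was the higher in each sequencing run as well. Run 1 of the ATRA libraries gave 11.4 CPM in hairpin 2 and 6.71 CPM in hairpin 1, and run 2 gave 13.5 CPM in hairpin 2 and 6.21 CPM in hairpin 1.

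A fit of the 4 knockdown libraries allowed for treatment and left 1 residual degree of freedom. Its errors and p-values therefore lean on spread pooled across genes. In that fit the log2 fold change of hairpin 2 over hairpin 1 was 1.05 ± 0.12 (SE) for IRF5, with an adjusted p of 9.1e-06 by edgeR. Of 12300 genes, 20 were at least as high. For IRF8 it was 0.48 ± 0.09 (SE), with an adjusted p of 0.0024 by edgeR, and 243 genes were at least as high. DESeq2 gave IRF8 a log2 fold change of 0.47 with an adjusted p of 0.12. IRF8 levels behind this were 21.5 CPM in hairpin 2 and 16.9 CPM in hairpin 1 in ATRA, and 35.3 CPM in hairpin 2 and 23.5 CPM in hairpin 1 in DMSO.

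IRF1 (0.07 ± 0.06), IRF2 (-0.02 ± 0.08) and IRF3 (0.02 ± 0.06) were not called between the hairpins. The 2 calls among 5 IRFs, both higher, stand beside 1.3% of all genes called higher and 0.732% lower, 2.03% in either direction. SMARCD2 itself was lower in hairpin 2, with a log2 fold change of -0.73 ± 0.07 (SE). With 1 library per hairpin and treatment, what belongs to the hairpin sequence, to the depth of knockdown and to the culture cannot be told apart. The share of counts from run 1 was 70.6% to 80.7% in knockdown libraries and 53.1% to 54.6% in control libraries.

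Whether the ATRA response of an IRF differed with knockdown was tested as an interaction. None of the 5 was called by edgeR, and 0.0488% of all genes (6 of 12301) were, with 979 at an unadjusted p under 0.05. Knockdown minus control differences in the log2 ATRA response were 0.06 ± 0.13 for IRF1, -0.15 ± 0.14 for IRF2, -0.14 ± 0.09 for IRF3, -0.05 ± 0.74 for IRF5 and -0.19 ± 0.35 for IRF8 (SE). The errors of IRF5 and IRF8 leave differences of the size of their ATRA response undetectable here. DESeq2 called 48 genes in the same contrast and limma-voom called 2.

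The authors' deposited table holds its own log2 fold changes of knockdown over control, which for IRF5 and IRF8 are smaller than those computed here. In the authors' deposited table the IRF8 value was 0.26 in ATRA (p = 0.0132, adjusted p = 0.154) and 0.28 in DMSO (p = 0.00234, adjusted p = 0.114). IRF5 had 0.25 in ATRA and 0.08 in DMSO in the authors' deposited table, and no adjusted p of the 5 IRFs was under 0.05 there. DESeq2 as run here gave IRF5 0.60 in ATRA and 0.66 in DMSO, and IRF8 0.36 in ATRA and 0.56 in DMSO. Whether the deposited values are the same kind of estimate is not known here, and the cause of the difference was not tested.

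Genes with the profile most like each IRF over the 6 libraries were found among 11771 genes, by the root mean square difference between log2 CPM centred per gene. Nearest to IRF1 were MRVI1 (0.0543), RNF213 (0.0587) and NEXN (0.0616). Nearest to IRF2 were STAT6 (0.013), PRKCD (0.0296) and PICALM (0.0323), and nearest to IRF3 were SOAT1 (0.0141), SDR39U1 (0.0164) and YIPF5 (0.0173). IRF8 lay nearest to RAB11FIP5 (0.0685), BVES (0.0728) and DPYSL2 (0.0975). The genes nearest to IRF5 were farther off, DPYSL2 (0.182), SDC1 (0.224) and IRF8 (0.242). All these profiles share the same 6 libraries, and likeness over them is a description.

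The genes around the IRFs were counted in ATRA against DMSO, by lists chosen from their known roles, where the median log2 fold change of all genes was -0.01 and 36.2% of all genes were called higher and 37.8% lower. The sensors, adaptors and kinases that activate IRF3, IRF5 and IRF7 were mostly higher: 20 of 23 tested were called higher and none lower, with a median of 0.76. They included TLR3 (log2 fold change 3.81), the adaptor MYD88 (3.09) and the RNA sensor DDX58, or RIG-I (3.05). TLR3 was scarce, at a mean of 4.40 CPM in ATRA and 0.32 CPM in DMSO. Of 16 interferon receptor, JAK and STAT genes, 15 were called higher (36.2% of all genes) and none lower (37.8% of all genes), with a median of 1.42 and the largest values for the feedback inhibitor USP18 (3.02), STAT2 (2.63) and SOCS3 (2.42).

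The 9 interferon genes looked up, with IFNA1 as the only interferon-alpha gene, gave little signal. None was listed for both treatments. IFNA1 alone had a row, in ATRA, with 7, 21 and 15 counts in hairpin 2, hairpin 1 and control cells. The other 8 had no row among the genes analysed here, and whether they lay under the lowest listed count was not tested.

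Among known IRF3 and IRF7 targets, 13 of 14 tested were called higher and 1 lower, with a median of 3.75, beside 36.2% of all genes higher and 37.8% lower. RSAD2, the antiviral protein viperin, had a log2 fold change of 5.62, IFI44L of 4.69 and the exonuclease ISG20 of 4.51. The chemokine CCL5 fell, with -0.89 over all libraries, which was -1.20 in knockdown cells and -0.26 in control cells. CXCL10 was listed only in ATRA, at 31.96, 30.4 and 33.9 CPM in hairpin 2, hairpin 1 and control cells. IRF3 itself, as given above, did not pass the test, and IRF7 was called higher.

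Of 13 tested IRF1 targets out of 23 in the list, 12 were called higher and none lower, with a median of 1.22, where 36.2% of all genes were higher and 37.8% lower. GCH1, which starts biopterin synthesis, had a log2 fold change of 5.04, the checkpoint ligand CD274 of 3.07 and the inflammasome protease CASP1 of 2.39. GCH1 averaged 14.9 CPM in ATRA and only 0.45 CPM in DMSO. GBP1 and GBP4 were listed only in ATRA, and 8 others, among them PSMB9 and TAP1, had no row among the genes analysed here.

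IRF8 targets in myeloid cells went both ways. Of 19 tested, 13 were called higher and 4 lower, with a median of 1.08, against 36.2% of all genes higher and 37.8% lower. The oxidase subunit CYBB (log2 fold change 5.03) and the interferon-inducible MNDA (2.36) rose, and the survival gene BCL2 (-4.13), the monocyte factor KLF4 (-2.78) and the phosphatase PTPN13 (-0.65) fell. Genes of this list also mark granulocyte maturation, CYBB being in both lists, and the maturation markers listed summed higher in ATRA than in DMSO in every construct, as given above. Their part in the IRF8 target values was not tested.

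Partners with which IRFs bind DNA or activate transcription were called higher in 13 of 17 cases and lower in 3, with a median of 0.62, next to 36.2% of all genes higher and 37.8% lower. BATF2 (log2 fold change 6.57), the repressor BCL6 (4.13) and STAT2 rose most, and JUN (-1.06), BATF3 (-0.83) and ETV6 (-0.54) fell. In DMSO BATF2 averaged only 0.43 CPM and BCL6 0.71 CPM. Of the 3 IRF2-binding corepressors, IRF2BPL (0.78) rose and IRF2BP1 (-0.72) and IRF2BP2 (-0.17) fell. Of 15 regulators of IRF protein stability, 6 were called higher, a share near the 36.2% of all genes, and 2 lower, where 37.8% of all genes were, with a median of 0.09. Of these, TRIM21 (1.98), CBL (1.33) and RBCK1 (1.02) rose and STUB1 (-0.36) fell.

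**Figure D5:**
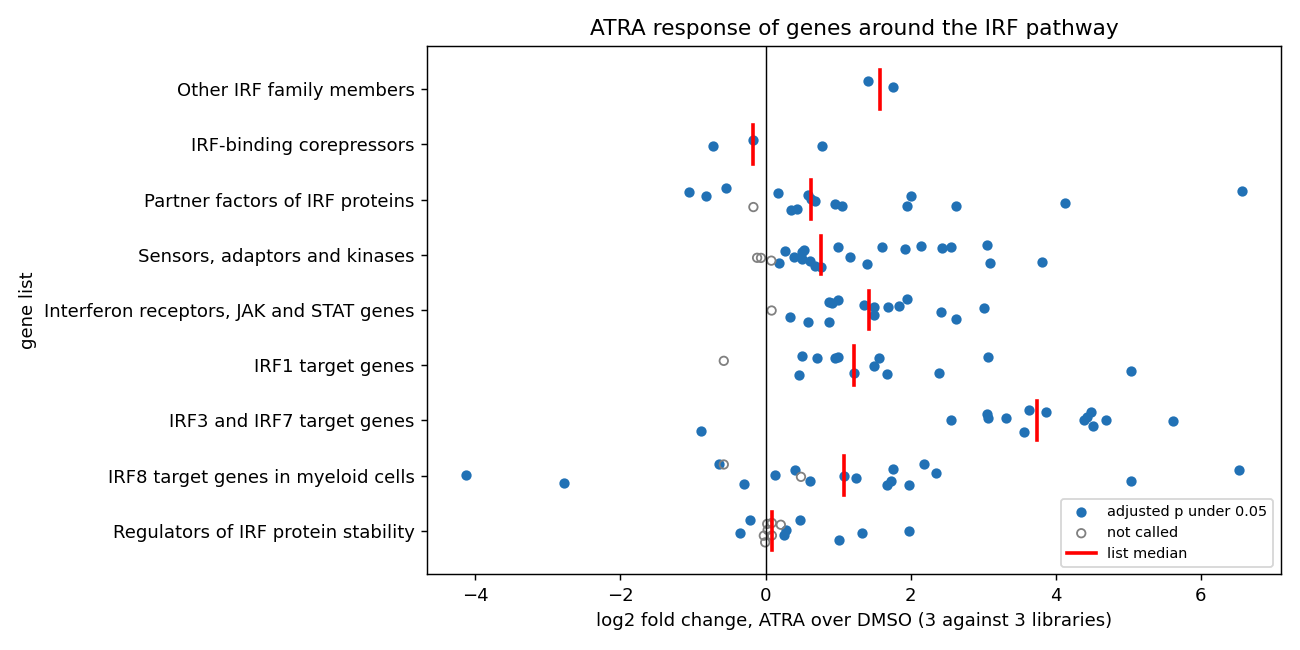
Log2 fold change of ATRA over DMSO for each gene tested (points; filled, adjusted p under 0.05 by edgeR; open, not called) in 9 lists of genes around the IRFs, with the list median in red; vertical scatter within a list only separates points. The IRF3 and IRF7 targets have the highest median, 3.75, and the regulators of IRF protein stability lie about 0.

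In the knockdown comparisons no gene of these lists was called, in ATRA or in DMSO. The IRF3 and IRF7 targets had a median log2 fold change of knockdown over control of 0.03 in ATRA, with 8 of 14 above 0. Their DMSO median was 0.41, with 13 of 14 above 0, beside a median of all genes of 0.00 in both treatments. This was the highest DMSO median of the lists, the lowest being -0.06 for the IRF2-binding corepressors. All 14 DMSO values were taken against the same 1 control library, so they are not separate observations. The share of all genes above 0 was not computed, and whether these targets as a set differed with knockdown was not tested. IRF7 was at 0.03 ± 0.10 in ATRA and 0.42 ± 0.11 in DMSO (SE, adjusted p = 0.944 and 0.513 by edgeR), and IRF9 at -0.05 ± 0.13 in ATRA and 0.28 ± 0.14 in DMSO (SE, adjusted p = 0.918 and 0.719 by edgeR). IRF7 read higher in run 1, whose share was larger in knockdown than in control libraries, as given above. In ATRA it was 222, 230 and 235 CPM in run 1 and 171, 176 and 178 CPM in run 2 (hairpin 2, hairpin 1, control). In DMSO it was 81.8, 66.6 and 59.0 CPM in run 1 and 57.6, 47.2 and 42.0 CPM in run 2. Within each run both hairpins were thus below control in ATRA and above it in DMSO. The part of run share in the summed values was not tested. Between the hairpins, 1 of 19 IRF8 targets was called, beside 2.03% of all genes. It was CST3, which encodes the protease inhibitor cystatin C and was higher in hairpin 2. IRF8 was higher in the same libraries, and the relation of the pair was not tested.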

How the data were processed

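Gene-level read counts from 6 RNA-seq libraries of NB4 cells were analysed, grouped by the labels. The build GRCh37.p13 and the tools bcl2fastq, STAR, Picard 2.5.0 and DESeq2 are named, per the submitters' processing notes. The sources used here do not give the counting tool or the strand setting. For each treatment the authors deposited 1 table, with raw counts per gene in 2 sequencing runs per library. The deposited tables also hold the authors' own test of knockdown against control, as a log2 fold change with its p-value, raw and adjusted. A further 12 columns, normalized copies of these counts, were left aside.

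Counts of the 2 runs were summed per library, and runs were never counted as replicates. The 12301 genes in both tables were scaled with TMM, filtered with filterByExpr and tested with edgeR 4.0.16 (quasi-likelihood, in R 4.3.3), with p-values adjusted over all genes by the Benjamini-Hochberg method and a threshold of 0.05. ATRA against DMSO had knockdown state as a term, and the knockdown and interaction contrasts used 4 groups of knockdown state by treatment. Residual degrees of freedom were 3 for the former, 2 for the latter and 1 between hairpins, and edgeR pools spread across genes. Intervals on CPM are exact Poisson at 95% and cover counting error only. The scripts were tested on simulated counts. DESeq2 1.42.0, limma-voom 3.58.1, other scalings, single runs, no filter, a construct block and leaving out each library were alternatives. Gene positions and exon lengths are from GENCODE on GRCh38, and promoter windows from RefSeq on GRCh38.p14, used for description only.

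The IRFs and the 10 lists around them were chosen with earlier results of these data known. Genes named are the IRFs described, up to 3 called genes with the largest change per list and direction (some are not reported here), the 3 most similar profiles of at least 1 CPM, SMARCD2, and genes singled out after their values were seen (CXCL10, GBP1, GBP4, IFNA1, PSMB9, TAP1, BCL2L12, C5orf56, CST3).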

Additional observations from a re-analysis of the deposited data

How the results depend on the processing

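The labels give constructs, not repeats, so each library stands for its group, and the lowest library of IRF5 held 173 counts. Of 425 log2 fold changes of the IRFs recomputed, 398 kept their direction and their side of the threshold, and of 99 counts of genes called 77 stayed within 1.5 times. All 24 recomputed count ratios kept their direction. IRF1 and IRF2 stayed called higher with ATRA under every alternative run. With scaling by total counts IRF3 was -0.0409 over all libraries and -0.0806 in knockdown cells, and the split of calls was 3637 higher and 5722 lower, against 4450 higher and 4650 lower with TMM. Leaving out 1 library at a time gave the ATRA response of IRF5 a range of -0.80 (without hairpin 1 in DMSO, adjusted p = 0.0258 by edgeR) to -0.0565 (without hairpin 2 in DMSO), and of IRF8 of -0.69 to -0.34. In knockdown cells alone the range was -1.01 to 0.20 for IRF5 and -0.88 to -0.29 for IRF8. For knockdown against control, the range in DMSO was -0.0487 to 0.164 for IRF1 and -0.061 to 1.15 for IRF5, with 0 to 21 genes called (21 without hairpin 1 in DMSO), and 0 to 1 genes were called in ATRA. For the difference in ATRA response it was -0.0606 to 0.153 for IRF1, -0.56 to 0.65 for IRF5 and -0.48 to 0.12 for IRF8, with 1 to 2 genes called. From run 2 alone, knockdown over control was 0.0448 for IRF2 and 0.0056 for IRF3 in ATRA and -0.0341 for IRF1 in DMSO, hairpin 2 over hairpin 1 was 0.011 for IRF2 and -0.0305 for IRF3, the interaction of IRF5 was 0.16, and 7 genes were called in ATRA, 3 in DMSO and 24 for knockdown within the ATRA table alone. Run 1 alone gave -0.0226 for the interaction of IRF1 and 1 call within the ATRA table, and limma-voom gave 0.0582 for the interaction of IRF5, with 2 interaction calls. DESeq2 called 52 genes for knockdown in ATRA, 38 in DMSO, 48 in the interaction, 4 within the ATRA table and 49 between hairpins, where IRF8 had 0.47 and was not called, and between hairpins limma-voom called 441 and RLE scaling 382. The correlation between ATRA and DMSO deviations of the same construct was 0.21 for hairpin 2, 0.19 for hairpin 1 and 0.08 for control, so the constructs were not taken as pairs, although every library correlated best with its own construct. A replicate block by construct called 348 genes for knockdown in ATRA, 116 in DMSO and 129 in the interaction. Under the same block IRF5 was called lower with ATRA over all libraries (-0.47, adjusted p = 0.0035 by edgeR) and in knockdown cells (-0.48, adjusted p = 0.0021 by edgeR), IRF8 lower with ATRA in control cells (-0.42, adjusted p = 0.0157 by edgeR) and IRF8 higher with knockdown in DMSO (0.53, adjusted p = 0.0345 by edgeR). These IRF estimates moved little from the main fit while their SE fell, for IRF5 over all libraries from 0.32 to 0.10. A block takes level differences between constructs out of the error, and the cause of the other changes was not tested. Leaving out a knockdown library between hairpins, a control library in its own comparison or any library within 1 table left nothing to fit and was not run.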
